A study of Mus musculus with 12 samples.

Results

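Lysosomal enzymes and membrane proteins were followed as a group of 38 mouse genes in embryonic fibroblasts with and without the retinoblastoma gene Rb1, with and without the DNA-damaging drug cisplatin. The group holds soluble hydrolases, proteins of the lysosomal membrane, a sorting receptor for lysosomal enzymes and proton pump components. A gene counted as measured where the annotation of the array assigned a probe set, a group of short probes against 1 transcript, to that gene alone under its current or a former symbol. By this rule 36 of the 38 genes were measured, out of 12384 genes on the array. All 36 also passed the filter on low signal, which 7944 genes of the array passed. Arsb and Cd63 had no probe set assigned to them alone in the annotation used here and were not analysed.

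The 4 groups were Rb null fibroblasts given 16 µM cisplatin for 24 h, wildtype fibroblasts given the same treatment, untreated Rb null fibroblasts and untreated wildtype fibroblasts. All were primary cultures from embryos of day 13.5, at passage 2, and the strain and the number of embryos are not given in the sources used here. A single RNA sample of each group was hybridized to 3 Affymetrix arrays (12 in all), so the replicates are hybridizations, and a p-value here covers repeat hybridization of 1 RNA and perhaps nothing of the spread between cultures or embryos. Values are signals made with MAS5, software that summarises each probe set on each array by itself, in arbitrary units that can be compared between arrays but not between probe sets.

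The lysosome is the acidic compartment in which cells break down proteins, glycans and lipids that arrive by endocytosis and autophagy. Its hydrolases are made in the endoplasmic reticulum and are carried to the lysosome mostly by mannose 6-phosphate receptors, a heavily glycosylated membrane shields the rest of the cell, and a proton pump, the vacuolar ATPase, keeps the lumen acidic. Many of these genes carry a short E-box element near their start, known as the CLEAR element, through which TFEB and related transcription factors raise lysosomal gene expression.

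Promoter windows from 250 bases before to 50 bases after the annotated start were taken from RefSeq (build GRCm38.p6) for 33 of the 38 genes. The letters CACGTG, which read the same on both strands, lay in a window of 13 of these 33 genes (39.4%), against 8.09% of all 27025 genes with windows and 12.2% of the 6501 tested genes with windows. The longer TCACGTG, on either strand, which contains CACGTG, lay in 12 of the 33 genes (36.4%), against 4.29% of all genes. The full 10-letter palindrome GTCACGTGAC, which contains both shorter motifs, lay in 1 of them, Cln3 (3.03%, against 0.37% of all genes). The stretches below come from 8 genes that hold the motif upstream of their start. Cln3 and Gla are shown because their signals were higher with cisplatin in both genotypes. Glb1, Lgmn, Sgsh, Ctsa and Mcoln1 are shown as examples of genes called lower in at least 1 comparison. Gla was also called lower in Rb null than in wildtype cells, with and without cisplatin. Gaa, which holds the motif upstream and was called lower in untreated Rb null cells, is not shown. Lamp1 is shown because it holds 4 copies and was called in no comparison. Capitals mark CACGTG, and each sequence runs 5′ to 3′ on the strand of its gene.
Cln3, chr7:126583328-126583409, minus strand: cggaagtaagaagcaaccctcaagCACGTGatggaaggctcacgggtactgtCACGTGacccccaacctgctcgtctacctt
Gla, chrX:134601170-134601255, minus strand: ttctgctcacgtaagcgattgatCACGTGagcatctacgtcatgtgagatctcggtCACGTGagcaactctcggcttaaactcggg
Glb1, chr9:114401006-114401059, plus strand: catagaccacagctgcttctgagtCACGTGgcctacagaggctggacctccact
Lgmn, chr12:102439112-102439165, minus strand: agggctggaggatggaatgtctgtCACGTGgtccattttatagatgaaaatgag
Sgsh, chr11:119355511-119355563, minus strand: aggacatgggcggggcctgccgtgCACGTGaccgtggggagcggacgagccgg
Ctsa, chr2:164833737-164833772, plus strand: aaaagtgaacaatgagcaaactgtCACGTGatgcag
Mcoln1, chr8:3500424-3500503, plus strand: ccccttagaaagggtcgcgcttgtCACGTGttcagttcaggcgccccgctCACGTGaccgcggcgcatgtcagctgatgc
Lamp1, chr8:13159076-13159160, plus strand: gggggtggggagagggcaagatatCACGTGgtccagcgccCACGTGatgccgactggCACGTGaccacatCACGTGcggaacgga
The windows of Man2b1, Tpp1 and Scarb2, the members with the highest difference of cisplatin effects, held no such letters.

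Groups were compared with limma on log2(signal + 10.4), a scale that understates changes of weak genes. A gene was called higher or lower where the adjusted p (Benjamini-Hochberg over all probe sets tested) was under 0.05 and the change was at least 1.5-fold. Log2 changes are given with their standard error (SE). The number of arrays limits their precision. In RNA from whole cultures, fewer cells of a type and less RNA per cell cannot be told apart.

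Rb1 itself had signals of 74.0 to 102.5 on cisplatin-treated Rb null arrays and 344 to 452 on cisplatin-treated wildtype arrays, and of 85.3 to 104.9 on untreated Rb null arrays and 419.9 to 488 on untreated wildtype arrays. The sources used here do not say whether its probe set falls within the deletion. The Y-linked Eif2s3y had signals of 470 to 485 on the untreated wildtype arrays and at most 17.8 on the other 9 arrays, while Xist, the X-inactivation RNA of female cells, had at most 163 on the untreated wildtype arrays and at least 2151 on the others. Each comparison with untreated wildtype cells therefore also sets RNA with female markers against RNA with male markers, which cannot be told apart from genotype or treatment there, and Gla, Lamp2, Ids and Atp6ap1 are X-linked. The comparisons of Rb null with wildtype cells under cisplatin, and of cisplatin with untreated Rb null cells, do not use that group. All 10 fibroblast markers were above the filter. Their summed signal was 44164 to 44884 in cisplatin-treated Rb null cells, 56350 to 58795 in cisplatin-treated wildtype cells, 64190 to 66632 in untreated Rb null cells and 64157 to 67286 in untreated wildtype cells.

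The heat map of all 36 genes shows rows that move in opposite directions. Of the 36, 21 were called in at least 1 of 5 comparisons, and the other 15 in none. The group mean was highest in untreated wildtype cells for 20 genes, in cisplatin-treated wildtype cells for 8, in cisplatin-treated Rb null cells for 7 and in untreated Rb null cells for 1. It was lowest in cisplatin-treated Rb null cells for 19 genes and in untreated Rb null cells for 12. These counts, and those by role given below, were not made over all genes. They therefore do not show that lysosomal genes differ from other genes, and the shares over all genes are given by comparison.

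**Figure D1:**
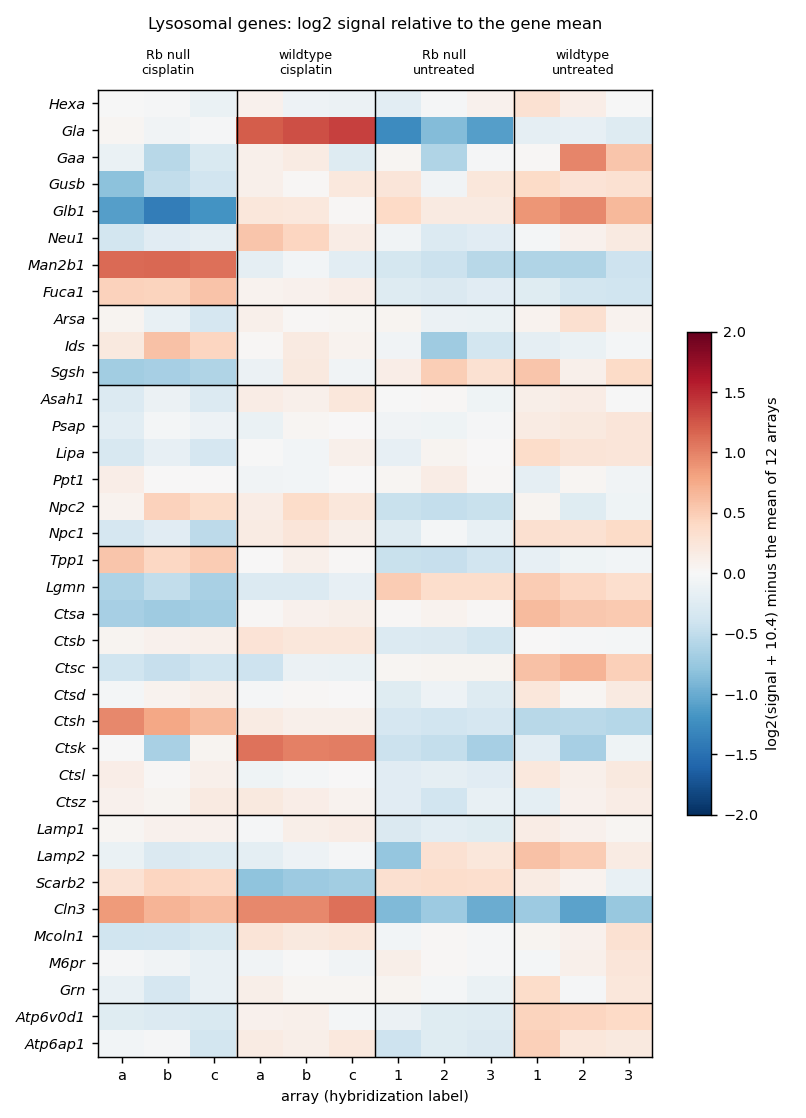
Heat map of log2(signal + 10.4) of 36 lysosomal genes (rows) on 12 arrays (columns) minus each gene's mean over the 12 arrays, with horizontal lines between roles (glycosidases, sulfatases, lipid hydrolases and helpers, proteases, membrane proteins and sorting, proton pump). Man2b1 and Ctsh are highest in cisplatin-treated Rb null cells, Gla and Ctsk in cisplatin-treated wildtype cells, and Cln3 is high on all 6 cisplatin arrays.

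Rb null cells given cisplatin were compared with untreated Rb null cells for the response to the drug without Rb1. Of 36 lysosomal genes, 8 were higher and 5 lower with cisplatin (22.2% and 13.9%), against 16.6% higher and 20.4% lower of all genes tested. The higher genes were Cln3, Man2b1, Ctsh, Gla, Tpp1, Ids, Fuca1 and Npc2, and the lower ones were Glb1, Lgmn, Sgsh, Ctsa and Gusb. The median log2 change of the 36 genes was -0.04, beside -0.02 for all genes. Centring each array on its median, in place of the deposited scale, shifted the median of all genes to 0.13, the median of the lysosomal genes to 0.11 and their calls to 8 higher and 3 lower. The same centring moved the share of higher genes among all calls from this comparison to 58.0%, beside 44.9% on the deposited scale.

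In wildtype cells, where the same comparison asks for the response with Rb1 present, 4 lysosomal genes were higher with cisplatin (Cln3, Gla, Ctsk and Ctsh) and 4 lower (Ctsc, Scarb2, Glb1 and Lgmn). These are 11.1% in each direction, against 14.9% higher and 12.7% lower of all genes. The median log2 change was -0.13, beside 0.06 for all genes. Cln3, Gla and Ctsh were called higher, and Glb1 and Lgmn lower, in both genotypes. The remaining calls stood in 1 genotype, which by itself does not show that the genotypes differ.

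The difference between the cisplatin effects (effect in Rb null minus effect in wildtype cells) compared the responses with each other. It rests on a single RNA sample per group, and its wildtype part also sets RNA with female markers against RNA with male markers. Genotype cannot be told apart from these here. The difference passed as higher for Man2b1, Scarb2 and Tpp1 and as lower for Ctsk, Glb1 and Sgsh. That is 8.33% in each direction, against 8.76% higher and 15.1% lower of all genes. The median difference of the 36 genes was 0.15, beside -0.08 for all genes. With median centring the calls were 5 higher and 2 lower, and the share of higher genes among all calls was 51.4%, beside 36.7% on the deposited scale.

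**Figure D2:**
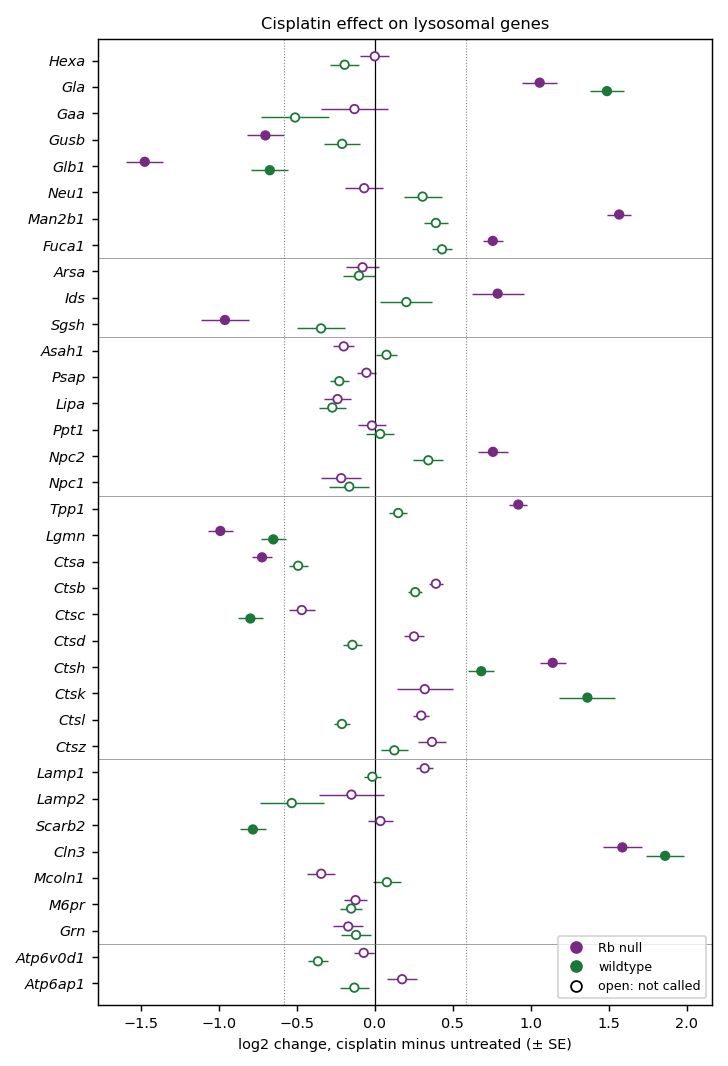
Log2 change with cisplatin (cisplatin minus untreated, ± SE) of 36 lysosomal genes in Rb null and wildtype cells, n = 3 arrays per group. Filled points passed the test, the dotted lines mark 1.5-fold, and the largest gap between the genotypes is that of Man2b1 (1.57 in Rb null, 0.39 in wildtype cells).

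Under cisplatin, 3 lysosomal genes were higher in Rb null than in wildtype cells (Man2b1, Scarb2 and Ctsh) and 8 were lower (Glb1, Gla, Ctsk, Ctsa, Gusb, Sgsh, Neu1 and Mcoln1). That is 8.33% and 22.2%, against 9.73% higher and 13.5% lower of all genes, and the median log2 difference was -0.20, beside -0.05 for all genes. With median centring, 5 lysosomal genes were lower and the median was -0.13, while the calls over all genes were 934 higher and 893 lower, beside 773 and 1069 on the deposited scale. Without the array Rb null cisplatin a, 5 lysosomal genes were called lower. In the same comparison 14 of 20 tested macrophage and leukocyte markers were lower in Rb null cells and 0 higher. Their summed signal was 9205 to 9443 in cisplatin-treated Rb null cells, 18334 to 18935 in cisplatin-treated wildtype cells, 10068 to 10656 in untreated Rb null cells and 8094 to 8392 in untreated wildtype cells. Such a sum gives strong probe sets the most weight. With cisplatin 3 of the 20 were higher and 14 lower in Rb null cells, with a median of -0.92 (all genes, 16.6% and 20.4%). In wildtype cells 7 were higher and 1 lower (all genes, 14.9% and 12.7%). None of the 20 was at 0 on any array. Between the genotypes under cisplatin, 6 of 10 fibroblast markers were also lower in Rb null cells and 0 higher. The part of macrophage, leukocyte or fibroblast RNA in the lysosomal differences was not tested.

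Without cisplatin, 0 lysosomal genes were higher and 4 lower in Rb null than in wildtype cells (0.0% and 11.1%, by limma with adjusted p under 0.05 and 1.5-fold), against 8.06% higher and 5.11% lower of all genes. The lower genes were Gla, Gaa, Atp6v0d1 and Atp6ap1. The median log2 difference of the 36 genes was -0.26, beside -0.01 for all genes, and 31 of 36 had a negative value. At adjusted p alone, with no minimum fold, 17 of the 36 genes were lower and 1 higher, against 16.8% lower and 18.7% higher of all genes. Macrophage markers were higher for 3 of 20 (1 of 20 with quantile normalization or with median centring) and lower for 0 in this comparison, and 2 of 10 fibroblast markers were higher.

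**Figure D3:**
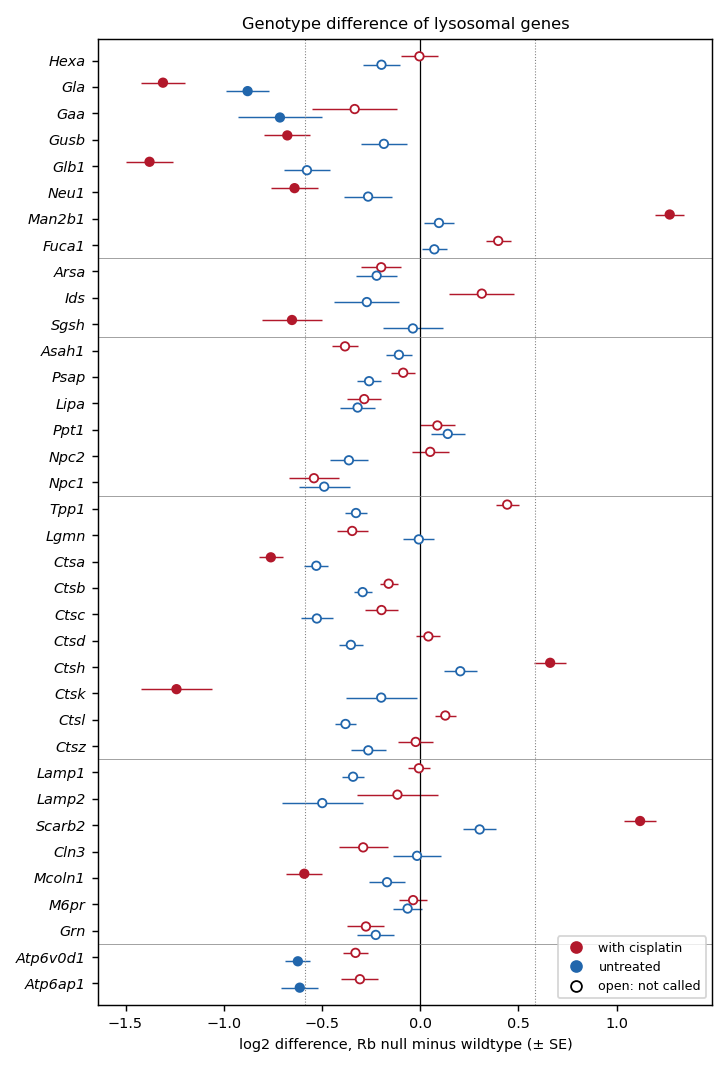
Log2 difference between the genotypes (Rb null minus wildtype, ± SE) of 36 lysosomal genes with cisplatin and untreated, n = 3 arrays per group. Filled points passed the test, and most untreated values lie between 0 and -0.6, while under cisplatin Man2b1, Scarb2 and Ctsh lie to the right and Glb1, Gla and Ctsk to the left.

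Among the 8 glycosidases, which cut sugars from glycoproteins and glycolipids, 7 were called in at least 1 comparison. Man2b1, the lysosomal alpha-mannosidase, had signals of 3481, 3533 and 3417 in cisplatin-treated Rb null cells and 1398, 1538 and 1376 in cisplatin-treated wildtype cells. Without the drug the signals were 1249, 1182 and 1078 in Rb null and 1048, 1048 and 1186 in wildtype cells. All cisplatin-treated Rb null arrays lay far above the other 9 arrays, which lay close together. The log2 change with cisplatin was 1.57 (SE 0.0753, adjusted p = 2.51e-10 by limma) in Rb null cells and 0.39 (SE 0.0753, adjusted p = 0.000499) in wildtype cells, where it stayed under 1.5-fold. The difference between these effects was 1.17 (SE 0.107, adjusted p = 1.36e-06), and the genotypes differed by 1.27 (SE 0.0753, adjusted p = 1.1e-08) under cisplatin. A second probe set of Man2b1 gave a change of 3.44 in Rb null and 1.36 in wildtype cells, called higher in both (adjusted p = 2.64e-07 and 0.00218, limma).

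Gla, alpha-galactosidase A, removes terminal galactose from glycolipids. Its signals were 267, 249 and 255 in cisplatin-treated Rb null cells and 615, 653 and 691 in cisplatin-treated wildtype cells. Untreated cells had 103, 139 and 115 when Rb null and 229, 232 and 217 when wildtype. No pair of groups overlapped, and cisplatin-treated Rb null cells lay only a little above untreated wildtype cells. Gla was higher with cisplatin by a log2 value of 1.06 in Rb null cells (SE 0.111, adjusted p = 1.05e-06) and 1.49 in wildtype cells (SE 0.111, adjusted p = 4.11e-08, limma). The genotypes differed by -1.31 under cisplatin (SE 0.111, adjusted p = 3.47e-07) and by -0.88 without it (SE 0.111, adjusted p = 2.51e-05). The wildtype change and the genotype difference without cisplatin also set RNA with female markers against RNA with male markers, and Gla is X-linked.

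Glb1, the lysosomal beta-galactosidase, had signals of 130.1, 105 and 122 in cisplatin-treated Rb null cells and 343, 338 and 295 in cisplatin-treated wildtype cells. In untreated cells it had 387, 330.4 and 330.1 when Rb null and 543, 574 and 462 when wildtype. The cisplatin-treated Rb null arrays were the lowest, and those of the untreated wildtype cells the highest, with the other 6 arrays between them. Glb1 fell 2.78-fold with cisplatin in Rb null cells (log2 -1.47, SE 0.118, adjusted p = 5.6e-08, limma) and 1.59-fold in wildtype cells (log2 -0.67, SE 0.118, adjusted p = 0.000219). The difference between the effects was -0.80 (SE 0.167, adjusted p = 0.00178), and Rb null cells were 2.60-fold lower than wildtype cells under cisplatin (adjusted p = 3.83e-07). Glb1 works in a complex with the sialidase Neu1 and the protective protein Ctsa, and these were also lower in Rb null than in wildtype cells under cisplatin.

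Neu1, which removes sialic acid, had signals of 195, 217 and 223 in cisplatin-treated Rb null cells and 380.1, 347 and 284 in cisplatin-treated wildtype cells. These groups did not overlap, and the log2 difference was -0.64 (SE 0.122, adjusted p = 0.000534, limma). The untreated values, 242, 208 and 217 in Rb null and 247, 270.2 and 291 in wildtype cells, gave no call. This difference fell under 1.5-fold without the array Rb null cisplatin a (-0.58) or wildtype cisplatin a (-0.55), and with quantile normalization (-0.54), median centring (-0.57) or a pseudocount of 45.8 (-0.57). Another probe set gave 0.06 (adjusted p = 0.884). Gusb, beta-glucuronidase, had 352, 445 and 482 in cisplatin-treated Rb null cells, 675, 639 and 736 in cisplatin-treated wildtype cells, 752, 599.6 and 742 in untreated Rb null cells and 829, 766 and 778 in untreated wildtype cells. The cisplatin-treated Rb null arrays were the 3 lowest of the 12. Its log2 value was -0.68 against cisplatin-treated wildtype cells (SE 0.117, adjusted p = 0.000248) and -0.70 against untreated Rb null cells (SE 0.117, adjusted p = 0.000102). Without the array Rb null cisplatin a, these values were -0.55 and -0.57 and no longer reached 1.5-fold, and a second probe set gave -0.39 and -0.37.

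Fuca1, the fucosidase, had signals of 2579, 2572 and 2808 in cisplatin-treated and 1573, 1529 and 1596 in untreated Rb null cells, a log2 change of 0.76 (SE 0.0637, adjusted p = 9.82e-08, limma). The cisplatin-treated wildtype arrays, at 1976, 1990.5 and 2065, lay between them, and the untreated wildtype arrays had 1594, 1454 and 1424. The wildtype change of 0.43 stayed under 1.5-fold. Another probe set gave 0.67 in Rb null and -0.06 in wildtype cells. On that set the genotype difference under cisplatin (0.68) and the difference of effects (0.73) were called, where the set used gave 0.40 and 0.33, not called. A further set gave 0.56 in Rb null cells, 0.01 in wildtype cells and a difference of effects of 0.55, none of them called. Gaa, the acid alpha-glucosidase that degrades glycogen, had 759.9, 487 and 732 in untreated Rb null cells and 753, 1479 and 1093 in untreated wildtype cells. These 2 groups overlapped, and the log2 difference of -0.71 (SE 0.216, adjusted p = 0.0197) was not called without Rb null untreated 2 (-0.51, adjusted p = 0.0982), wildtype untreated 2 (-0.48, adjusted p = 0.0998) or wildtype untreated 3 (-0.70, adjusted p = 0.0515). Its second probe set gave -0.22 (adjusted p = 0.238). With cisplatin in wildtype cells that second set was called lower (-0.60, SE 0.135, adjusted p = 0.00174, limma), where the set used gave -0.51 and was not called. Hexa, the alpha subunit of beta-hexosaminidase, was called in no comparison, with 1872 ± 91.3 in cisplatin-treated Rb null cells and 1880 ± 150.1 in cisplatin-treated wildtype cells (SD, n = 3 each).

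Of the 3 sulfatases measured, Sgsh and Ids were called. Sgsh, which removes sulfate from heparan sulfate, had signals of 90.9, 93.4 and 98.3 in cisplatin-treated Rb null cells and 141, 178 and 145 in cisplatin-treated wildtype cells. Untreated cells had 169.7, 220.0 and 193 when Rb null and 231, 166 and 204 when wildtype. The cisplatin-treated Rb null arrays were the 3 lowest of the 12 and did not overlap with any other group. Sgsh was lower with cisplatin in Rb null cells (log2 -0.96, SE 0.154, adjusted p = 7e-05, limma) and lower in Rb null than in wildtype cells under cisplatin (-0.65, SE 0.154, adjusted p = 0.00266). The genotype value was under 1.5-fold without wildtype cisplatin b (-0.55), with median centring (-0.58) and with a pseudocount of 45.8 (-0.51). The difference between the cisplatin effects was -0.62 (SE 0.217, adjusted p = 0.038), and it lost its call without any single array of 8, with adjusted p between 0.0504 and 0.1. Ids, the iduronate sulfatase, had 168, 222 and 199 in cisplatin-treated and 137, 84.3 and 110.4 in untreated Rb null cells. Its log2 change was 0.79 (SE 0.166, adjusted p = 0.000782), the groups did not overlap, and 2 further probe sets gave 0.30 and -0.14, neither of them called. Between the genotypes under cisplatin, the set with 0.30 was called higher in Rb null cells (0.60, SE 0.177, adjusted p = 0.0114, limma). There the set used gave 0.31 and the remaining set -0.27, neither called. Arsa, the sulfatase of sulfatides, was called in no comparison.

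Of the 6 genes for lipid breakdown and its helper proteins, Npc2 alone was called. Npc2, which hands cholesterol to the membrane protein Npc1, had signals of 8678, 11485 and 10713 in cisplatin-treated and 6072, 5951 and 6114 in untreated Rb null cells. Wildtype cells had 9225, 10744 and 9686 with cisplatin and 8617, 6994 and 7807 without it. The lowest arrays were those of untreated Rb null cells, and with cisplatin the genotypes overlapped. The change in Rb null cells was 0.76 on the log2 scale (SE 0.0951, adjusted p = 6.56e-06, limma), and its second probe set gave 0.64. In wildtype cells the change was 0.34 (adjusted p = 0.00704), under 1.5-fold. Npc1, which passes cholesterol out of the lysosome, had group means of 116 ± 13.3 in cisplatin-treated Rb null and 174 ± 8.57 in cisplatin-treated wildtype cells, and of 137 ± 10.9 in untreated Rb null and 196 ± 6.28 in untreated wildtype cells (SD, n = 3 each). Both genotype differences, -0.54 and -0.49, stayed under 1.5-fold. Asah1, Psap, Lipa and Ppt1, which encode acid ceramidase, the saposin precursor, acid lipase and palmitoyl-protein thioesterase, had log2 values between -0.38 and 0.14 in the 4 pairwise comparisons. For Lipa, another probe set gave -1.49 with cisplatin in Rb null cells, where the set used gave -0.24. A second set of Psap was called lower with cisplatin in wildtype cells (-0.59, SE 0.0724, adjusted p = 7.8e-06), where the set used gave -0.23.

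Of the 10 proteases, 6 were called in at least 1 comparison, some higher and some lower. Ctsh, a cathepsin with aminopeptidase activity, had signals of 1267, 1111 and 1014 in cisplatin-treated Rb null cells and 729, 698 and 697 in cisplatin-treated wildtype cells. Untreated cells had 511, 495 and 509.8 when Rb null and 439, 441 and 432 when wildtype. No pair of groups overlapped. Ctsh was higher with cisplatin by 1.14 on the log2 scale in Rb null cells (SE 0.0826, adjusted p = 1.96e-08, limma) and by 0.68 in wildtype cells (SE 0.0826, adjusted p = 6.74e-06). The genotype difference under cisplatin, 0.66 (SE 0.0826, adjusted p = 1.39e-05), was 0.58 and under 1.5-fold without Rb null cisplatin a.

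Tpp1, the tripeptidyl peptidase, had signals of 4556, 4127 and 4398 in cisplatin-treated and 2271, 2261 and 2366 in untreated Rb null cells. In wildtype cells it had 3122, 3331 and 3156 with cisplatin and 2759.8, 2919 and 2984 without it. On this probe set the Rb null cells held both the 3 highest and the 3 lowest arrays. The change in Rb null cells was 0.92 (SE 0.0578, adjusted p = 4.23e-09), that in wildtype cells was 0.15, and the difference between them was 0.77 (SE 0.0818, adjusted p = 6.38e-06, limma). A second probe set had its 3 highest arrays in the same group. It gave 0.83 in Rb null cells, -0.28 in wildtype cells, a difference of 1.11, and a called genotype difference of 1.01 under cisplatin, where the set used gave 0.44.

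Ctsk, a collagen-degrading cathepsin best known from osteoclasts, had signals of 245, 152 and 254 in cisplatin-treated Rb null cells and 530.1, 505 and 511 in cisplatin-treated wildtype cells. Untreated cells had 180.0, 174 and 151 when Rb null and 210.1, 151 and 230.1 when wildtype. Only the cisplatin-treated wildtype arrays stood apart. The change with cisplatin was 1.36 in wildtype cells (SE 0.18, adjusted p = 1.65e-05, limma) and 0.32 in Rb null cells (SE 0.18, adjusted p = 0.135), and the difference between them was -1.04 (SE 0.255, adjusted p = 0.00527). The genotypes differed by -1.24 under cisplatin (SE 0.18, adjusted p = 5.56e-05). The summed macrophage markers, given above, were also highest in cisplatin-treated wildtype cells. Of 6 osteoclast markers measured, 2 passed the filter on low signal, namely Nfatc1, which was called in no comparison, and Mmp9. Mmp9 was lower with cisplatin, at -1.57 in Rb null and -2.42 in wildtype cells (SE 0.124 each), and its difference of effects was 0.85 (SE 0.175), opposite in sign to that of Ctsk. Acp5, which did not pass the filter, had signals of 12.6 to 49.7 over the 12 arrays. The part of either cell type in the Ctsk values was not tested.

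Lgmn, the asparaginyl endopeptidase legumain, had signals of 579, 631 and 566 in cisplatin-treated and 1273, 1145 and 1142 in untreated Rb null cells. In wildtype cells it had 738, 732 and 795 with cisplatin and 1269, 1185 and 1123 without it. The 6 cisplatin arrays lay below the 6 untreated arrays. Lgmn was lower with cisplatin by a log2 value of -0.99 in Rb null cells (SE 0.0784, adjusted p = 5.03e-08, limma) and -0.65 in wildtype cells (SE 0.0784, adjusted p = 6.34e-06). Untreated, the genotypes gave -0.01.

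Ctsa had signals of 859.5, 827 and 844 in cisplatin-treated Rb null cells, 1386, 1447 and 1476 in cisplatin-treated wildtype cells, 1383, 1433 and 1383 in untreated Rb null cells and 2128, 1987 and 1959.5 in untreated wildtype cells. The cisplatin-treated Rb null arrays were the lowest and the untreated wildtype arrays the highest, with the other 2 groups level. It was lower in Rb null than in wildtype cells under cisplatin (log2 -0.76, SE 0.0615, adjusted p = 2.21e-07, limma) and lower with cisplatin in Rb null cells (-0.72, SE 0.0615, adjusted p = 1.07e-07). With median centring the change with cisplatin was -0.58, under 1.5-fold.

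Ctsc, which activates serine proteases of immune cells, had 1058, 1295 and 1284 in cisplatin-treated and 2111, 2267 and 1954 in untreated wildtype cells. These groups did not overlap (log2 -0.80, SE 0.0821, adjusted p = 1.28e-06, limma). In Rb null cells it had 1069, 1022 and 1066 with cisplatin and 1447, 1464 and 1469 without it, a change of -0.47 that stayed under 1.5-fold. Ctsb, Ctsd, Ctsl and Ctsz were called in no comparison. In untreated cells their log2 differences between Rb null and wildtype were -0.29, -0.35, -0.38 and -0.26, each with an adjusted p under 0.05 but under 1.5-fold. A weaker probe set of Ctsb passed in the difference of cisplatin effects (0.93), while the set used gave 0.13.

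**Figure D4:**
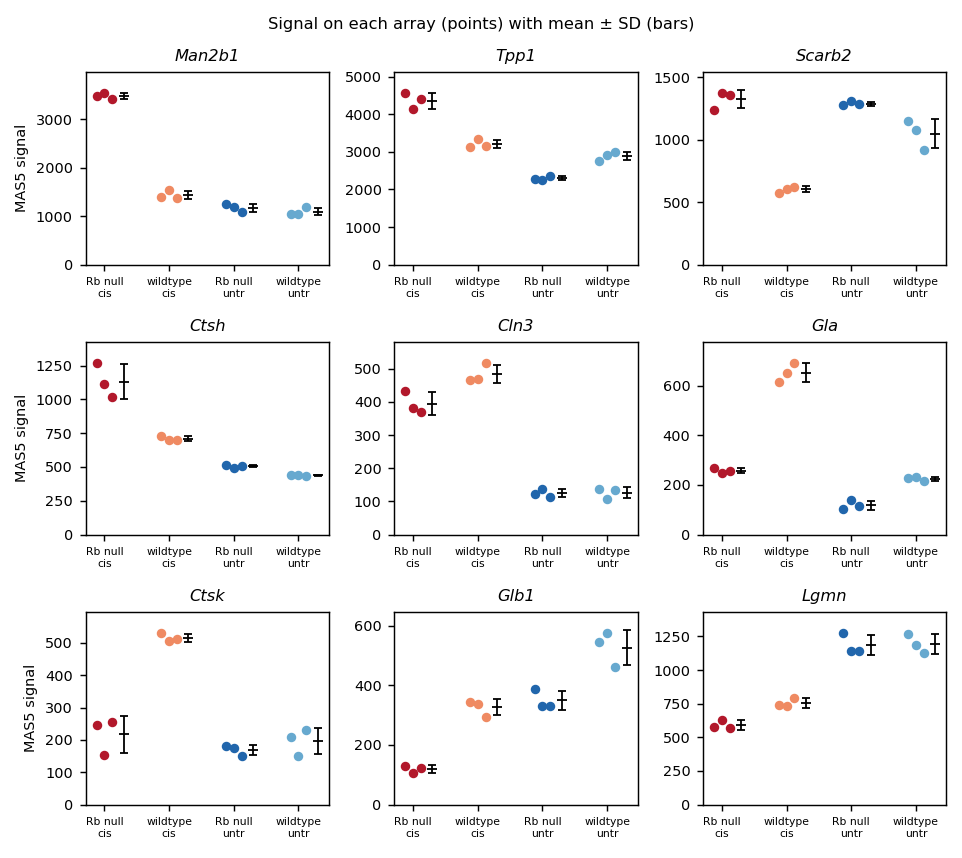
MAS5 signal of 9 lysosomal genes on each array (points) with the mean and SD of each group (bars, n = 3), for cisplatin-treated (cis) and untreated (untr) Rb null and wildtype cells. Man2b1 is highest in cisplatin-treated Rb null cells. Ctsk is high in cisplatin-treated wildtype cells alone, and Cln3 is high in both cisplatin groups. On the probe set drawn, Scarb2 is low in cisplatin-treated wildtype cells alone.

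Of the 7 genes for membrane proteins, sorting and progranulin, 3 were called. Cln3, the membrane protein whose loss causes juvenile Batten disease in humans, had signals of 434, 382 and 369 in cisplatin-treated Rb null cells and 467, 469 and 517 in cisplatin-treated wildtype cells. Untreated cells had 122, 138 and 113 when Rb null and 138, 106 and 135 when wildtype. Every cisplatin array lay far above every untreated array, and the untreated genotypes overlapped. Cln3 rose 3.00-fold in Rb null cells (log2 1.59, SE 0.124, adjusted p = 4.43e-08, limma) and 3.63-fold in wildtype cells (log2 1.86, SE 0.124, adjusted p = 1.22e-08). The difference between these effects was -0.27 (SE 0.175, adjusted p = 0.24).

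Scarb2, a membrane protein that carries glucocerebrosidase to the lysosome, had signals of 1239, 1369 and 1355 in cisplatin-treated Rb null cells and 576, 607 and 623 in cisplatin-treated wildtype cells. Untreated cells had 1273, 1306 and 1284 when Rb null and 1146, 1072 and 920.0 when wildtype. On this probe set the cisplatin-treated wildtype arrays lay apart, below all others. The change with cisplatin was -0.78 in wildtype cells (SE 0.0825, adjusted p = 1.65e-06, limma) and 0.04 in Rb null cells, and the difference between them was 0.82 (SE 0.117, adjusted p = 9.02e-05). Under cisplatin the genotypes differed by 1.12 (SE 0.0825, adjusted p = 9.5e-08). A second probe set gave 0.70 for the difference of effects, which passed, but -0.31 in wildtype cells and 0.58 between the genotypes, which were under 1.5-fold. On that set the change in Rb null cells was 0.38 (adjusted p = 0.00161, limma), also under 1.5-fold. Its cisplatin-treated Rb null arrays (977.7, 918.5 and 900.5) lay above all others, and its cisplatin-treated wildtype arrays overlapped the untreated Rb null arrays.

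Mcoln1, the calcium channel TRPML1 of the lysosomal membrane, had 251, 253 and 269 in cisplatin-treated Rb null cells and 399.7, 386 and 393 in cisplatin-treated wildtype cells. The untreated arrays had 322, 339 and 327 when Rb null and 345, 357 and 417 when wildtype. The treated groups did not overlap, and the difference of -0.59 (SE 0.0916, adjusted p = 9.82e-05, limma) lay at the 1.5-fold limit. It was -0.57 without Rb null cisplatin a, -0.58 without Rb null cisplatin b and -0.58 without wildtype cisplatin a, each under the limit. With quantile normalization it was -0.50, with median centring -0.52 and with a pseudocount of 45.8 -0.53, also under the limit, and a second probe set gave -0.75. The abundant membrane glycoproteins Lamp1 and Lamp2, the mannose 6-phosphate receptor M6pr and the progranulin gene Grn were called in no comparison. Lamp1 had group means of 6041 ± 123 in cisplatin-treated Rb null, 6075 ± 380.3 in cisplatin-treated wildtype, 4840.2 ± 129 in untreated Rb null and 6138 ± 236 in untreated wildtype cells (SD, n = 3 each). For Lamp2, 2 further probe sets passed as lower in untreated Rb null than wildtype cells, at -0.63 and -0.67, and the set used gave -0.50 (SE 0.206, adjusted p = 0.0777).

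The proton pump members were Atp6v0d1, a subunit of the membrane sector, and Atp6ap1, an accessory protein. Atp6v0d1 had signals of 1635, 1491 and 1477 in untreated Rb null cells and 2398, 2383 and 2318 in untreated wildtype cells. These groups lay wide apart (log2 -0.62, SE 0.0637, adjusted p = 3.18e-06, limma). With cisplatin it had 1486, 1458 and 1431 in Rb null and 1884, 1903 and 1723 in wildtype cells, a difference of -0.33 under 1.5-fold. Atp6ap1 had 1637, 1832 and 1780.3 in untreated Rb null cells and 3029, 2539 and 2498 in untreated wildtype cells, and 2104, 2154 and 1697 in Rb null and 2443, 2378 and 2514 in wildtype cells with cisplatin. Its untreated difference was -0.61 (SE 0.0944, adjusted p = 0.000162), and it was under 1.5-fold without Rb null untreated 1 (-0.57) or wildtype untreated 1 (-0.52).

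The remaining subunits of the pump, 13 tested of 14 listed, were counted beside these 2 members. In untreated cells all 15 pump genes were lower in Rb null than in wildtype cells at adjusted p under 0.05, and 6 of the 15 also reached 1.5-fold, against 16.8% and 5.11% of all genes. The 13 further subunits had a median log2 difference of -0.52. All 13 also passed as lower at adjusted p alone with quantile normalization and with median centring, but those at 1.5-fold numbered 2 with quantile normalization and 6 with median centring, beside 4 on the deposited scale. The largest difference was that of Atp6v0a1, a subunit of the membrane sector, with signals of 312, 374 and 375 in untreated Rb null and 789.9, 675 and 688 in untreated wildtype cells (2.00-fold lower, SE 0.112 on the log2 scale, adjusted p = 7.58e-06, limma). Atp6v0a1 was lower with cisplatin in both genotypes, by a log2 value of -1.44 in Rb null and -1.05 in wildtype cells (SE 0.112 each). It was the only 1 of the 13 called lower with cisplatin. In Rb null cells 3 of the 13 were higher and 1 lower, with a median of 0.27 (all genes, 16.6% and 20.4%). In wildtype cells 0 were higher and 1 lower, with a median of 0.01 (all genes, 14.9% and 12.7%). With cisplatin 2 of the 13 subunits were lower in Rb null than wildtype cells and 0 higher, with a median of -0.14 (all genes, 13.5% lower and 9.73% higher). All of the untreated comparisons use the group with Y-linked transcripts described above.

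Further lysosomal hydrolases and their activators, 17 tested, gave 1 higher and 6 lower in Rb null than wildtype cells under cisplatin, against 9.73% and 13.5% of all genes. With median centring these were 2 higher and 4 lower. The higher gene was Ctsf, a cathepsin, with signals of 1111, 1011 and 1007 in cisplatin-treated Rb null cells, 357, 365 and 339 in cisplatin-treated wildtype cells, 192, 241 and 209 in untreated Rb null cells and 309, 268 and 284 in untreated wildtype cells. Like Man2b1, it was highest in cisplatin-treated Rb null cells, with a log2 change of 2.23 there (SE 0.0981, adjusted p = 1.01e-10, limma). The change in wildtype cells was 0.29, and the difference of effects was 1.94 (SE 0.139, adjusted p = 1.5e-07). Among the lower ones were Galc, which degrades galactosylceramide (-1.11, SE 0.123), Gnptab, which makes the mannose 6-phosphate tag (-0.94, SE 0.111), Manba, the beta-mannosidase (-0.80, SE 0.174), and Sumf1, which activates sulfatases (-0.78, SE 0.117). The same 17 genes gave 4 higher and 3 lower with cisplatin in Rb null cells (all genes, 16.6% and 20.4%). They gave 1 higher and 0 lower in wildtype cells (all genes, 14.9% and 12.7%). Between the untreated genotypes 0 were higher and 1 lower (all genes, 8.06% and 5.11%).

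Further lysosomal membrane proteins and sorting receptors, 11 tested, gave 6 higher and 1 lower with cisplatin in Rb null cells (all genes, 16.6% and 20.4%), and 1 higher and 2 lower in wildtype cells (all genes, 14.9% and 12.7%). The largest rise in Rb null cells was that of Laptm4b (log2 1.10, SE 0.08), followed by Tmem192 (1.05, SE 0.0854), Cln8 (0.88, SE 0.0972) and Vps18 (0.82, SE 0.13). Igf2r, the large mannose 6-phosphate receptor, was lower in both genotypes, at -1.06 in Rb null and -0.69 in wildtype cells (SE 0.116 each). Sort1, the sorting receptor sortilin, was lower in wildtype cells (-1.07, SE 0.137). Between the genotypes, 0 of the 11 passed under cisplatin in either direction by limma, although 2 were higher and 2 lower at adjusted p alone, and 1 was lower in untreated cells. Of all genes, 9.73% were called higher and 13.5% lower under cisplatin, and 8.06% and 5.11% in untreated cells. At adjusted p alone, 1831 of all 7944 genes were higher and 2408 lower under cisplatin.

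Split by the CACGTG letters, the 31 measured genes with a promoter window gave these counts. With cisplatin in Rb null cells, 2 of 13 genes with the letters were higher and 4 lower, and of 18 genes without them 5 were higher and 1 lower. Over all tested genes with a window, 18.2% of the 796 with the letters were higher and 18.8% lower, and 16.4% of the 5705 without them were higher and 20.4% lower. In wildtype cells, 2 were higher and 2 lower of those with the letters, and 1 higher and 2 lower of those without. Over all tested genes with a window, the wildtype shares were 14.1% higher and 9.67% lower with the letters, and 15.2% and 12.6% without. Under cisplatin 0 genes with the letters were higher and 5 lower in Rb null than in wildtype cells, beside 2 higher and 3 lower without them. The shares over all tested genes were 8.54% higher and 12.8% lower with the letters, and 10.0% and 13.2% without. The medians of the difference of cisplatin effects were -0.23 with and 0.27 without the letters, and -0.04 and -0.08 over all tested genes. These counts describe the listed genes and were not tested.

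The lysosomal genes were also summarised over whole arrays. The median deviation of the 36 genes from their own means was -0.14 to -0.03 (log2) on the cisplatin-treated Rb null arrays and 0.06 to 0.10 on the cisplatin-treated wildtype arrays. It was -0.15 to -0.11 on the untreated Rb null arrays and 0.10 to 0.17 on the untreated wildtype arrays. The 6 Rb null arrays were all below 0 and the 6 wildtype arrays all above it, without overlap. Arrays of a group repeat the same RNA, and the untreated wildtype RNA is that with Y-linked transcripts, so the arrays are not independent samples of a genotype. The same median over all genes stayed between -0.03 and 0.05. With cisplatin it was also below 0 on each Rb null array and above 0 on each wildtype array. On Rb null cisplatin a it was -0.02, beside -0.03 for the lysosomal genes. On untreated arrays its sign was mixed in both genotypes. The part of array scale in the split was not tested.

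**Figure D5:**
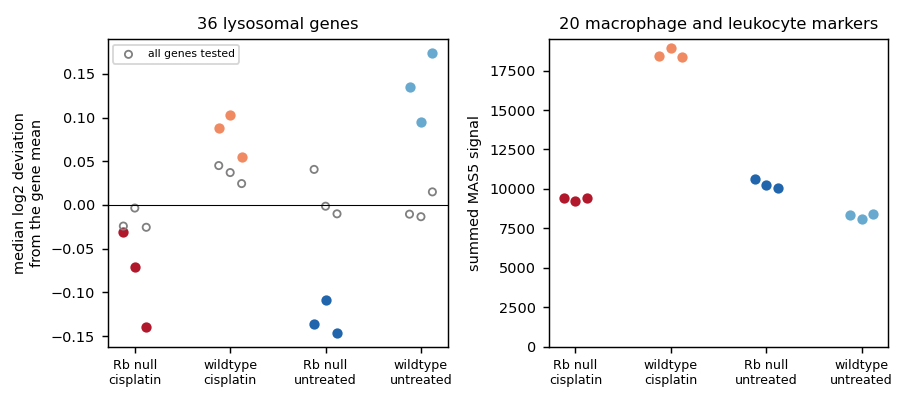
Left, median log2 deviation of 36 lysosomal genes from each gene's mean on each array (filled points) beside the median of all genes tested (open points); right, summed MAS5 signal of 20 macrophage and leukocyte markers on each array. The lysosomal medians are below 0 on the 6 Rb null arrays and above 0 on the 6 wildtype arrays. Arrays of a group are repeat hybridizations of the same RNA. The marker sum is highest, at 18334 to 18935, in cisplatin-treated wildtype cells.

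Of the 36 genes, 18 had more than 1 tested probe set. The sets of a gene had the same sign for 14 of these 18 genes in the untreated genotype comparison and in the cisplatin response of Rb null cells, and for 12 in the other 3 comparisons. Of the genes called on the set used, every tested set was called for 3 of 6 in the cisplatin response of Rb null cells, 0 of 1 in that of wildtype cells, 2 of 5 between the genotypes under cisplatin, 0 of 1 between the untreated genotypes and 3 of 3 in the difference of cisplatin effects. Other genes were called on another set only. In the same order of comparisons these numbered 1, 3, 3, 1 and 2.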

How the data were processed

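Total RNA of 4 groups of mouse embryonic fibroblasts was hybridized to 12 arrays. The deposited values are intensity signals per probe set that the authors made with MAS5, per the submitters' processing notes; its version and scaling are not given in the sources used here. Trimmed by 2% at either end, the array means ran from 500.14 to 500.16, so no further scaling was applied.

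Signals were converted to log2 after adding 10.4, their 10th percentile. Of 22690 probe sets, 64 controls and then the 40% with the lowest mean were left out, and 13576 were tested. Of all sets, 20380 had 1 gene symbol in the platform annotation, 691 several and 1555 none. A gene was read from 1 probe set, with cross-hybridizing suffixes last and then the highest mean. Group means were estimated over the 12 arrays in R 4.3.3 by limma 3.58.1 (lmFit, eBayes with a variance trend, 8 residual and 6.09 prior degrees of freedom), with 5 contrasts and two-sided tests. The model was tested on simulated data. Standard errors pool the spread over the 4 groups.

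The members and all gene lists were chosen with earlier results of these data known. Array values are given for the members with the largest called change, up to 8 per contrast and direction, and for other lists up to 4 called genes per direction are named. Hybridization numbers did not pair the arrays: correlations of same-numbered deviations ran from -0.19 to 0.11. Within a group, arrays correlated at 0.981 to 0.992. Alternatives were other pseudocounts, filters, scalings, fold minimums, probe sets and sample sets. Figures were drawn with matplotlib 3.10.9 in Python 3.11.15.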

Additional observations from a re-analysis of the deposited data

Results flagged for a closer look

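The cisplatin effect differed between Rb null and wildtype cells for 6 lysosomal genes, by the limma test of the difference itself (adjusted p under 0.05 and at least 1.5-fold; values are the effect in Rb null minus that in wildtype cells). Man2b1 had a difference of 1.17 (adjusted p = 1.36e-06), Scarb2 of 0.82 (adjusted p = 9.02e-05) and Tpp1 of 0.77 (adjusted p = 6.38e-06). On the other side, Ctsk had -1.04 (adjusted p = 0.00527), Glb1 -0.80 (adjusted p = 0.00178) and Sgsh -0.62 (adjusted p = 0.038). These are 8.33% of the 36 genes in each direction, beside 8.76% higher and 15.1% lower of all genes. The Sgsh call was lost without any single array of 8, with no low filter, quantile normalization, median centring, a pseudocount of 45.8 or the replicate block. All 6 rest in part on the untreated wildtype group, the group with Y-linked transcripts. In the same test 14 of 20 macrophage and leukocyte markers and 7 of 10 fibroblast markers passed as lower, and the part of cell composition in the lysosomal values was not tested.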

How the results depend on the processing

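Of 42 calls of a member in a comparison, 33 were kept without each single array and 9 were lost without at least 1. With only the groups of each comparison, without the wildtype untreated group, without the variance trend and with a pseudocount of 1, no call that could be recomputed was lost. Leaving out single arrays, the members lower in Rb null cells under cisplatin numbered 5 to 8, and the median cisplatin change in wildtype cells was -0.16 to -0.0733 (-0.0733 without wildtype untreated 1). With a pseudocount of 45.8, 5 members were lower in Rb null cells under cisplatin. Leaving out the lowest 60% of probe sets kept 29 members, so counts had fewer genes to draw on: under cisplatin 4 were lower in Rb null cells (median -0.12), cisplatin gave 5 higher in Rb null cells and 1 in wildtype cells, and the difference of effects had 1 lower (median 0.24). With median centring, 5 members were lower in Rb null cells under cisplatin (median -0.13), 3 lower with cisplatin in Rb null cells (median 0.11), and the difference had 5 higher (median 0.25).

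With no fold minimum, untreated Rb null cells had 1 member higher and 17 lower, and treated ones 5 higher and 16 lower. Of all 7944 genes, 1484 were higher and 1334 lower untreated, and 1831 and 2408 treated. Cisplatin gave 13 members higher and 9 lower in Rb null cells (all genes, 2487 and 2728). In wildtype cells 10 were higher and 10 lower (all genes, 2549 and 1952). The difference had 11 higher and 9 lower (all genes, 1206 and 1918). With a 2-fold minimum, lower members numbered 0 between untreated and 3 between treated genotypes, and 0 with cisplatin in wildtype cells. Rb null cells then had 4 higher and 1 lower with cisplatin, and the difference 1 in each direction. All genes were not counted at a 2-fold minimum. With the second-ranked probe set the untreated genotype median was -0.21, 5 members were higher in Rb null cells under cisplatin, the median difference of effects was 0.0672, and Neu1 turned to 0.0559 (adjusted p = 0.884); the cause was not tested.

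The Sgsh difference of effects had adjusted p = 0.0709 with no filter, 0.104 with quantile normalization, 0.096 with median centring and 0.0849 with the replicate block. The replicate block changed no other call; it left 4 lower members between untreated and 3 higher and 8 lower between treated genotypes. Cisplatin-treated and untreated arrays share no hybridization label, so no block was fitted for them. Detection calls were not used here, so how far weak signals, such as those of Sgsh, lie over background is unknown.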

Other observations

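Autophagy delivers its cargo to the lysosome. Of 18 autophagy genes tested, 0 were higher and 4 lower in untreated Rb null than untreated wildtype cells, against 8.06% and 5.11% of all genes. With cisplatin 5 were higher and 2 lower in Rb null cells (all genes, 16.6% and 20.4%), and 2 higher and 2 lower in wildtype cells (all genes, 14.9% and 12.7%), by limma as for the lysosomal genes. Sqstm1, the cargo receptor p62, had signals of 6235, 6600.4 and 5886 in cisplatin-treated Rb null cells and 3108, 3213 and 3029.8 in untreated Rb null cells. Wildtype cells had 6259, 6271 and 6029 with cisplatin and 5764, 5029 and 5142 without it, so both untreated groups lay below all 6 cisplatin arrays, the Rb null arrays lowest. Of all genes, 8.76% passed as higher and 15.1% as lower in the difference of cisplatin effects. That difference passed as higher for 5 of the 18 autophagy genes and as lower for 1, Uvrag (-1.70, SE 0.136). It was 0.78 for Sqstm1, 0.93 for Map1lc3b and 0.85 for Gabarapl1, ubiquitin-like genes of the autophagosome membrane, and 1.45 for the conjugation gene Atg12. The kinase gene Ulk1, which starts autophagy, rose with cisplatin in both genotypes, by 2.16 (log2, SE 0.0837) in Rb null and 1.10 in wildtype cells (SE 0.0837). Uvrag, a gene of endosome and autophagosome maturation, was lower, at -2.78 in Rb null and -1.08 in wildtype cells (SE 0.0963 each).

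Among 7 tested regulators of lysosome gene expression, Flcn, a gene of nutrient signalling to TFEB, had signals of 909, 785 and 749 in cisplatin-treated and 230.0, 298 and 307 in untreated Rb null cells, and 823, 712 and 597 in cisplatin-treated and 503, 478 and 509.5 in untreated wildtype cells. Its log2 change with cisplatin in Rb null cells was 1.52 (SE 0.128, adjusted p = 9.68e-08, limma). Mtor, the kinase gene of the same pathway, was lower there (-1.25, SE 0.131, adjusted p = 1.02e-06). Tfeb and Mitf did not pass the filter on low signal.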
